A study of Mus musculus with 12 samples.

Results

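The comparison described here asks what loss of Usp18 does to brain transcripts when the type I interferon receptor is also missing. It sets the 3 arrays of the double knockout (USP18ko:IFNARko) against the 3 arrays of the Ifnar1 knockout (IFNARko), which are 6 of the 12 arrays of the study. Each array measured RNA from a total brain lysate of untreated adult mice held under specific-pathogen-free conditions. The other 6 arrays are 3 wild-type (WT) and 3 Usp18 knockout (USP18ko) brains, which serve here to show what loss of Usp18 does when the receptor gene is intact. Both groups of the main comparison carry the Ifnar1 knockout, and they differ by design in Usp18, which is knocked out in the double knockout only. The labels name no Cre driver or promoter for either knockout, and they give neither the sex of the mice, their number per array nor the strain background. They do not state that replicates came from separate animals. A p-value here therefore sets a difference against the scatter among these samples only, and that scatter may be technical. Levels are log2 signals, so a difference of 1 is a doubling, and 12393 genes were measured with 1 probe set each.

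Usp18 encodes a protease with separate roles. It removes ISG15, a ubiquitin-like modifier, from other proteins. Independently of that activity it binds the receptor chain IFNAR2 and blunts signalling to JAK1. Type I interferons bind IFNAR1 and IFNAR2, which activates JAK1 and TYK2, and STAT2 and IRF9 then act at interferon-stimulated response elements in promoters. IFNAR1 is needed for this route, so the comparison reads the loss of Usp18 in its absence.

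Loss of Usp18 without the receptor left no gene past the threshold in the limma fit of all 12 arrays. At an adjusted p under 0.05, 0 of 12393 genes (0%) were called, and the smallest adjusted p was 0.228. Without IFNARko replicate 1 the count was again 0 (0%), with a smallest adjusted p of 0.372. An unadjusted p under 0.05 was reached by 1022 genes (8.25%), of which 325 were higher (2.62%) and 697 lower (5.62%) in the double knockout, and 561 genes (4.53%) once that array was left out. All 3 double knockout arrays lay above all 3 IFNARko arrays for 1150 genes (9.28%) and below them for 1386 genes (11.2%). The median difference over all genes was -0.01, with the middle 50% of genes between -0.14 and 0.11, and 0.02 without IFNARko replicate 1, with the middle 50% between -0.07 and 0.11. The 95% interval of a typical gene reached 0.29 to either side of its difference, or 0.26 without that array, so smaller changes were not detectable for a typical gene even before adjustment. The count of 0 is not shared by every alternative: 814 genes were called when limma weighted the arrays by their quality and 363 with the Xist level as a covariate, as given in the closing part.

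The 6 arrays of the comparison were not alike in RNA quality or in sex-linked transcripts. In IFNARko replicate 1 the 3' probe set of beta-actin exceeded the 5' one by 1.48, against 0.20 to 0.54 in the other 11 arrays, and a Gapdh difference of 0.47, against -0.37 to -0.17. Its spike-in control bioB read 9.37, against 7.96 to 8.37, and it was the highest or the lowest of the 12 arrays for 54% of the genes, where the other arrays reached 6.2% to 31.6%. Xist, the RNA that coats the inactive X chromosome, read 11.21, 10.34 and 11.34 in the double knockout and 5.65, 5.24 and 4.98 in IFNARko. The Y-linked genes Eif2s3y and Kdm5d were low in double knockout replicates 1 and 3 and high in replicate 2 and in all IFNARko arrays, so double knockout replicate 2 carried both kinds of signal. In this comparison the Xist signal therefore separates the same arrays as the genotype does, and the part of sex and that of Usp18 cannot be told apart by these 6 arrays.

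**Figure D1:**
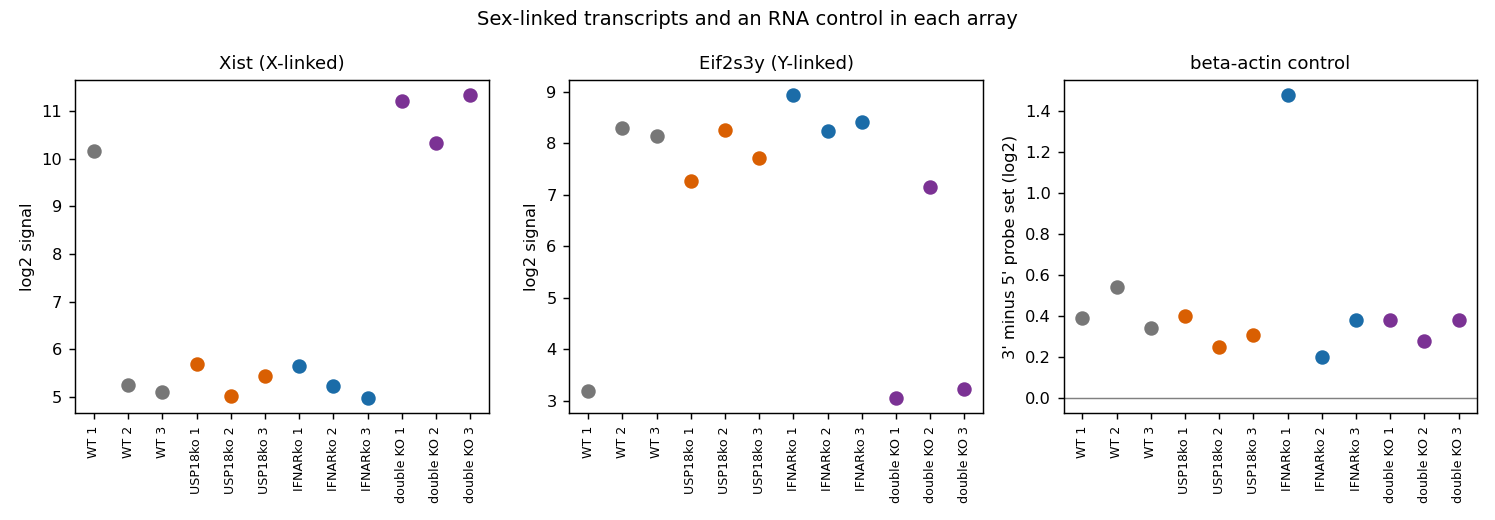
Log2 signals of Xist and Eif2s3y and the log2 difference between the 3' and 5' probe sets of beta-actin in each of the 12 arrays, coloured by genotype. Xist is at 10.34 or above in all 3 double knockout arrays and at 5.65 or below in all IFNARko arrays, and the beta-actin difference of IFNARko replicate 1, at 1.48, stands above the other 11 arrays.

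The targeted genes were read first. Ifnar1, a chain of the receptor, read 6.56, 6.56 and 6.68 in the double knockout and 6.24, 6.59 and 6.47 in IFNARko, against 7.44 to 8.21 in the 6 arrays of the genotypes with the intact gene. Both groups compared here were thus low for Ifnar1 and overlapped each other, with a difference of 0.17 (SE 0.17, limma, adjusted p = 0.706). Usp18 read 3.50, 3.71 and 3.69 in the double knockout and 3.55, 3.67 and 3.53 in IFNARko, which overlap, and 4.04 to 4.36 in WT. Its difference was 0.05 (95% interval -0.20 to 0.31, adjusted p = 0.878), so this probe set did not separate the groups that differ in Usp18. In USP18ko against WT the same probe set fell by 0.63 (limma, adjusted p = 0.0137). The USP18ko arrays read 3.76, 3.58 and 3.55, so IFNARko, with Usp18 intact by design, already read at the level of the knockout. The loss of Usp18 is therefore not visible at this probe set in the main comparison. Each targeted gene had 1 probe set, and where it lies in relation to the deleted sequence is unknown here.

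The genes that answer loss of Usp18 in the presence of the receptor were then followed into the receptor-deficient background. In USP18ko against WT, 142 genes (1.15%) were higher, by 0.50 to 5.0 with a median of 1.53. The main comparison shares none of the arrays whose means chose them, but the spread in that fit came from all 12 arrays, so the choice was not independent of it. Without IFNARko replicate 1 184 genes were called higher or lower in USP18ko against WT, where the fit of all arrays called 143. In the double knockout against IFNARko their median difference was -0.08, with a range of -0.90 to 0.70, and without IFNARko replicate 1 it was 0.06, with a range of -0.31 to 0.62. None of the 142 passed the adjusted threshold in either fit. Of the 142, 50 (35.2%) had a positive difference, where 47.3% of all genes did, and 89 (62.7%) did so without IFNARko replicate 1, where 55.6% of all genes did. The sign of the typical gene among them therefore turned on that 1 array.

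Promoters of 3 of the 142 genes are shown because interferon-stimulated response elements lie in promoters and these genes moved together in USP18ko. The sequences are the windows from 250 bases before to 50 bases from the annotated start in RefSeq's mouse assembly GRCm38.p6, 5′ to 3′ on the strand of the gene. Capitals mark GAAA followed by any 2 bases and GAAA, read on either strand. Ifit1 lies at chr19:34640639-34640938 on the plus strand, Cxcl10 at chr5:92348840-92349139 on the minus strand and Gbp2 at chr3:142620413-142620712 on the plus strand.
Ifit1: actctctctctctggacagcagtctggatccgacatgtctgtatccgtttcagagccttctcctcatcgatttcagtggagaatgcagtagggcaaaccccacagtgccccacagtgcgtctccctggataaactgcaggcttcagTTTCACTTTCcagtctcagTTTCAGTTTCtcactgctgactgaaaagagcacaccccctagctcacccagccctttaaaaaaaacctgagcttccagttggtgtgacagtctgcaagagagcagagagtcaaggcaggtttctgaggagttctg
Cxcl10: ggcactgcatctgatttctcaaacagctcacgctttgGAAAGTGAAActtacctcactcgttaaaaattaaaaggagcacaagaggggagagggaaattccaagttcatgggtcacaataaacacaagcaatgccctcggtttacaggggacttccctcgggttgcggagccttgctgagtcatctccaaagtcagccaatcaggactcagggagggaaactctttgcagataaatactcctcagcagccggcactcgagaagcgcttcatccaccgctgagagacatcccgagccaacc
Gbp2: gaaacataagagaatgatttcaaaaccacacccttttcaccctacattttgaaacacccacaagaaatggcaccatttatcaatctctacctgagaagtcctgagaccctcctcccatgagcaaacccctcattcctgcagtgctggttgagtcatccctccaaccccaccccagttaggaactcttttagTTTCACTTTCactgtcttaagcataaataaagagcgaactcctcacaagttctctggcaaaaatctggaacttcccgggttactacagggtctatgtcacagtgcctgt
Ifit1 holds 2 matches and Gbp2 holds 1, all read on the opposite strand as TTTC repeats, and Cxcl10 holds 1 on the strand shown. Of the 142 genes 107 had a promoter in the table, and 28 of these (26.2%) held a match, as did 3.99% of the 27025 genes in the table and 3.84% of the 9887 tested genes with a promoter. Among the 20 genes with the smallest p in the double knockout against IFNARko, which are described further on, 17 had a promoter and 0 held a match. A match describes letters in a window and shows no binding.

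Cxcl10, a chemokine that attracts T cells, shows the size of the contrast. It read 3.52, 3.49 and 3.84 in the double knockout and 3.93, 3.65 and 3.65 in IFNARko, beside 9.42, 8.77 and 8.57 in USP18ko and 3.94, 4.04 and 3.78 in WT. The groups without the receptor overlapped and lay at the WT level or just below it. The difference on loss of Usp18 was 5.0 with the receptor gene and -0.13 (95% interval -0.54 to 0.28) without it. Ifit1, which binds viral RNA, read 3.66, 3.15 and 3.31 in the double knockout and 3.82, 3.11 and 3.20 in IFNARko, against 8.36 to 8.84 in USP18ko. Its difference without the receptor was 0.00 (95% interval -0.43 to 0.43). Ifit3, of the same family, read 4.78, 4.98 and 5.07 against 4.91, 4.76 and 4.77, which overlap, for a difference of 0.13 (95% interval -0.15 to 0.41), where it was 4.19 with the receptor gene.

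Other antiviral genes behaved likewise. Rsad2, which encodes viperin, read 6.02, 5.68 and 6.31 in the double knockout and 6.46, 5.74 and 5.50 in IFNARko, against 10.43 to 10.81 in USP18ko. Oasl2, an oligoadenylate synthetase-like gene, read 3.80, 3.76 and 3.71 against 3.87, 3.65 and 3.84, and Ifi27l2a read 4.06, 3.90 and 3.83 against 3.99, 3.85 and 3.84. In all 3 genes both groups overlapped, with differences of 0.11, -0.03 and 0.04. Without IFNARko replicate 1 that of Rsad2 was 0.38 (95% interval -0.01 to 0.78), and those of Oasl2 and Ifi27l2a were 0.01 and 0.09. The chemokine gene Ccl12 read 4.15, 4.03 and 4.03 against 4.55, 3.83 and 4.26, for a difference of -0.14 (95% interval -0.63 to 0.34). Ifi202b, a DNA-binding gene of the interferon-inducible p200 family, read 4.45, 3.83 and 3.86 against 4.01, 3.43 and 3.43. Its difference was 0.42 (95% interval -0.14 to 0.99) and 0.62 without IFNARko replicate 1 (95% interval 0.03 to 1.21, adjusted p = 0.975), beside 3.73 with the receptor gene.

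**Figure D2:**
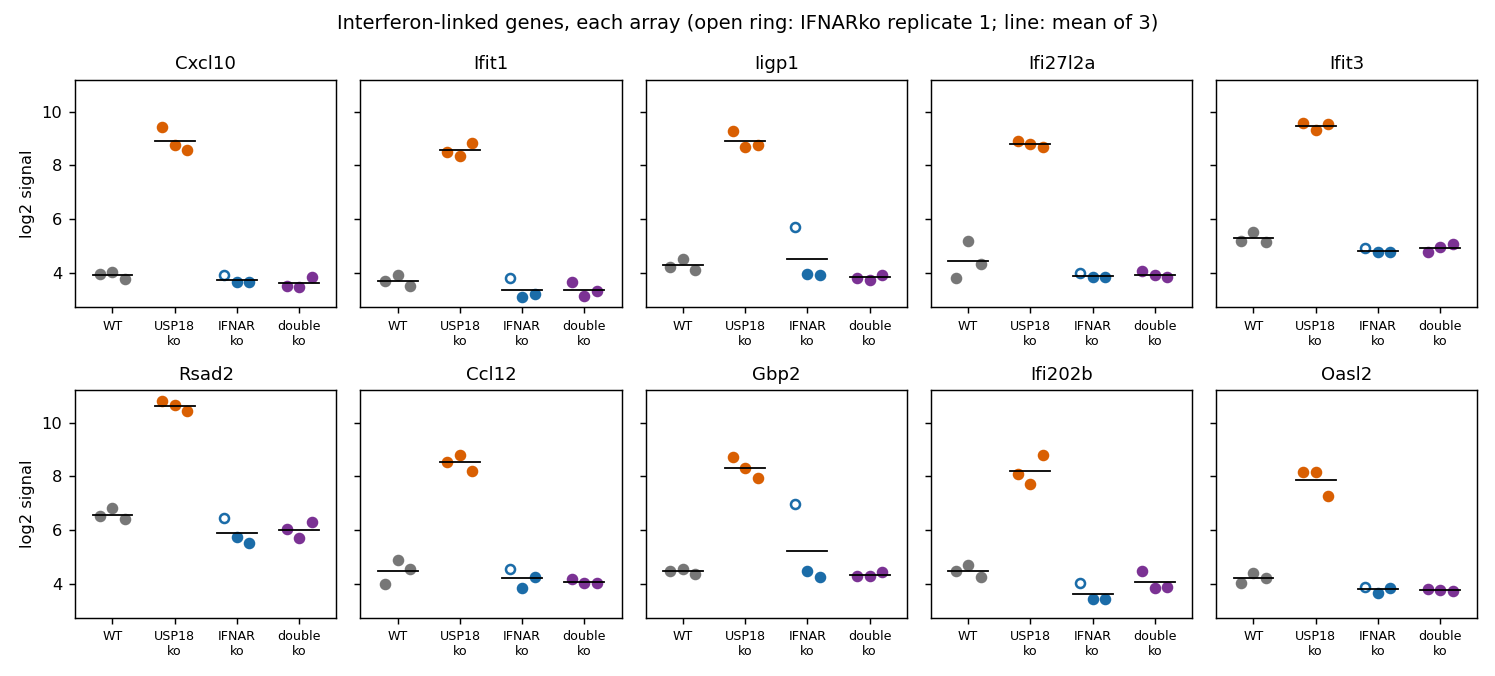
Log2 signals in each array of the 10 genes with the largest difference between USP18ko and WT, by genotype, with the mean of 3 arrays as a line and IFNARko replicate 1 as an open ring. All 10 genes are highest in USP18ko, and the double knockout arrays sit near IFNARko replicates 2 and 3. For Ifi202b and Ifit3 all 3 double knockout arrays lie above both of these. IFNARko replicate 1 is raised for Gbp2 (6.97) and Iigp1 (5.72).

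For most of these genes the intervals kept the difference below 1 in size. The 95% interval lay between -1 and 1 for 131 of the 142 (92.3%), where this held for 96.2% of all genes. Without IFNARko replicate 1 it did so for 138 (97.2%), and for 98.3% of all genes. In USP18ko against WT, 113 of the 142 differed by at least 1, and the smallest difference was 0.50. For the rest, a bound of 1 does not exclude a change of the size seen with the receptor gene. At an unadjusted p under 0.05, 1 of the 142 was higher (0.7%) and 6 were lower (4.2%) in the double knockout, beside 2.62% and 5.62% of all genes. Without IFNARko replicate 1, 7 were higher, Ifi202b among them, and 0 lower, where 4.53% of all genes passed in both directions together. No share of all genes by direction was taken for that fit, so the 7 higher genes have no like share beside them. The higher one in the fit of all arrays was Avp, the vasopressin precursor of hypothalamic neurons. It read 8.28, 7.98 and 8.64 in the double knockout and 7.21, 7.70 and 7.89 in IFNARko, with no overlap, a difference of 0.70 (SE 0.24, limma, adjusted p = 0.566) and 0.50 without IFNARko replicate 1. The 6 lower ones were Ptprc (-0.66), Tgm2 (-0.54), Ifih1 (-0.50), Icam1 (-0.48), Casp12 (-0.38) and Il18bp (-0.26), and leaving out that array brought each closer to 0. Groups did not overlap for 10 of the 142 on the higher side (7%) and for 16 on the lower side (11.3%), beside 9.28% and 11.2% of all genes.

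The interaction tests the change in the difference itself. All 142 genes had a negative interaction, and 101 of them (71.1%) passed the threshold, out of 102 genes (0.823%) called lower over the whole array. Because these genes were chosen for a high value in USP18ko, which is a term of the interaction, this share is a description of size and not independent support. Irf7, a transcription factor that amplifies the interferon response, read 4.81, 4.69 and 4.79 in the double knockout and 4.69, 4.56 and 4.61 in IFNARko, against 8.24 to 8.66 in USP18ko. Its groups touched at 4.69, and its interaction was -3.26 (limma, adjusted p = 4.34e-07). The guanylate-binding gene Gbp6 and Lgals3bp, a secreted galectin ligand, had interactions of -3.64 and -3.38 (adjusted p = 6.59e-06 each). The gene called lower that is not among the 142 was Cmpk2, a mitochondrial nucleotide kinase induced by interferon, singled out here after its values were seen. It read 7.58, 7.52 and 7.49 in the double knockout, below 8.76, 7.86 and 7.97 in IFNARko, with a difference of -0.67 and an interaction of -1.35 (adjusted p = 0.0420).

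**Figure D3:**
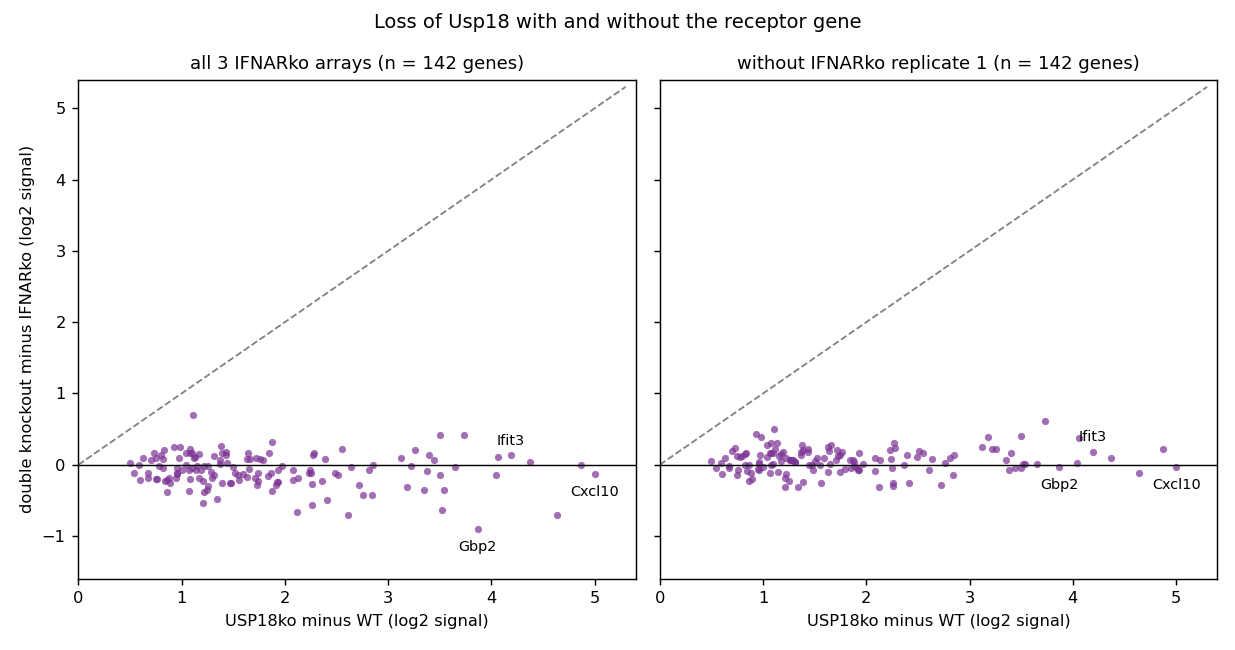
Each point is 1 of the 142 genes higher in USP18ko, with its difference from WT on the x axis and the difference between the double knockout and IFNARko on the y axis, both in log2 units, with all arrays (left) and without IFNARko replicate 1 (right). The dashed line marks equal differences, the points lie along 0 between -0.90 and 0.70 at left, and Gbp2, at -0.90, moves to -0.03 at right.

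Several genes that respond more to interferon gamma were high in 1 IFNARko array. Gbp2, a guanylate-binding protein, read 4.27, 4.29 and 4.43 in the double knockout and 6.97, 4.47 and 4.24 in IFNARko. IFNARko replicate 1 alone was high, and the difference went from -0.90 (95% interval -2.01 to 0.21) to -0.03 without it. Iigp1, an immunity-related GTPase, read 3.81, 3.74 and 3.93 against 5.72, 3.94 and 3.93, and Irgm2, of the same class, read 3.96, 4.01 and 4.51 against 6.11, 4.18 and 4.28. Their differences of -0.70 each became -0.11 and -0.07 without that array. Gbp2b, a further guanylate-binding gene, went the other way and read 4.05, 4.02 and 4.18 against 3.63, 3.6 and 3.78, higher without overlap, for 0.42 (95% interval -0.05 to 0.88) and 0.40 without that array. Ptprc, the leukocyte antigen CD45, read 4.89, 5.32 and 4.80 against 6.35, 5.21 and 5.41, again highest in IFNARko replicate 1. Over the list of interferon-gamma-preferring genes, 14 of 17 were measured and 0 were called, and their mean level was 4.85 to 4.94 in the double knockout, 5.86 in IFNARko replicate 1 and as low as 4.75 in the other IFNARko arrays. That array was the highest of the 6 for 97 of the 142 genes (68.3%) and for 49.1% of all genes. Whether its RNA quality has a part in this was not tested.

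The interferon-stimulated genes as a list, chosen with earlier results of these data known, included 36 measured of 46. Their median difference was -0.02, and 0.09 without IFNARko replicate 1, beside -0.01 and 0.02 for all genes, while 30 of the 36 were called higher in USP18ko. In the double knockout 0 of 36 were called, 1 was higher and 2 were lower at an unadjusted p under 0.05, beside 2.62% and 5.62% of all genes. Without IFNARko replicate 1, 0 were called, and 4 were higher and 1 lower at that unadjusted p, beside 4.53% of all genes in both directions together. A positive difference was seen for 17 of the 36, and for 25 without that array, where 55.6% of all genes had one. The list's mean level was 4.94 to 5.06 in the double knockout and 4.93 to 5.26 in IFNARko.

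Components of interferon signalling had differences of -0.24 to 0.60. Of 19 measured members 0 were called, and the median difference was -0.01, or 0.06 without IFNARko replicate 1. Stat2, a transcription factor of the type I interferon response, read 5.64, 5.71 and 5.82 in the double knockout and 4.33, 5.67 and 5.35 in IFNARko. The low IFNARko replicate 1 sets its difference of 0.60 (SE 0.27, adjusted p = 0.566), which was 0.21 without that array. Irf9, the DNA-binding partner of STAT2, read 6.24, 6.24 and 6.19 against 6.56, 6.31 and 6.36, lower without overlap. Its difference was -0.19 (95% interval -0.45 to 0.07), where it was 0.88 higher in USP18ko than in WT. Ifnar2, the chain that USP18 binds, differed by -0.01 (95% interval -0.32 to 0.30). The kinases Jak1 and Tyk2 differed by 0.18 (95% interval -0.10 to 0.47) and -0.07 (95% interval -0.41 to 0.28). The feedback inhibitors Socs1 and Socs3 differed by 0.25 and 0.03, and the gamma receptor chains Ifngr1 and Ifngr2 by -0.04 and 0.38. Ifngr2 read 9.80, 9.73 and 9.74 against 8.72, 9.83 and 9.59, and its difference was 0.05 without IFNARko replicate 1. Il10rb, a receptor chain of type III interferon and interleukin 10, differed by -0.24 (95% interval -0.47 to -0.00, adjusted p = 0.566).

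The ISG15 pathway, on which the protease acts, was measured in 5 of 8 members, with 0 called and a median difference of 0.05. The activating enzyme Uba7 differed by -0.12, the conjugating enzyme Ube2l6 by 0.08 and the ligase Trim25 by 0.16, with 95% intervals of -0.46 to 0.21, -0.27 to 0.43 and -0.23 to 0.55. Trim25 read 6.88, 7.05 and 6.75 in the double knockout and 6.83, 6.57 and 6.82 in IFNARko, which overlap, against 7.75 to 8.53 in USP18ko. Its interaction was -1.23 (limma, adjusted p = 0.0401). Of 35 measured ubiquitin-specific proteases, the family of Usp18, 0 were called and the median was -0.09. Usp33 read 8.88, 9.03 and 8.81 against 9.38, 9.21 and 9.10, lower in all 3 double knockout arrays, with a difference of -0.32 (adjusted p = 0.566) and -0.25 without IFNARko replicate 1. Usp20 was higher in all 3 arrays, at 0.36, and Usp45 lower in all 3, at -0.51, with the same adjusted p. Without IFNARko replicate 1 these were 0.21 and -0.32.

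USP18 has also been tied to TAK1 and NF-kB signalling, so genes of that pathway and of interferon induction were read. Of 21 measured members of that pathway 0 were called, and the median of -0.12 became 0.01 without IFNARko replicate 1. Tab2, a TAK1 adaptor, read 9.67, 9.87 and 9.66 in the double knockout and 10.62, 9.92 and 9.97 in IFNARko, a difference of -0.44 that shrank to -0.21. Among 13 genes of nucleic acid sensing, 0 were called. The kinase Tbk1 differed by -0.43, the RNA sensor Ifih1 by -0.50 and the RNA-editing enzyme Adar by 0.65. Without IFNARko replicate 1 these were -0.26, -0.25 and 0.29. Ifih1 read 5.80, 5.62 and 5.76 against 6.74, 6.12 and 5.82, so the groups lay next to each other without overlapping.

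The genes with the smallest p were not interferon genes. The 10 higher and 10 lower genes with the smallest p are described with their values, all with adjusted p of 0.228 or more in the limma fit. Clec3b, which encodes the plasminogen-binding protein tetranectin, read 8.06, 7.48 and 8.07 in the double knockout and 6.69, 6.45 and 6.65 in IFNARko. The groups lay apart, by 1.28 (95% interval 0.84 to 1.71, adjusted p = 0.228) and by 1.32 without IFNARko replicate 1. WT and USP18ko arrays, at 7.52 to 8.32, were at the level of the double knockout, so it was IFNARko that stood apart. The interaction of Clec3b was 1.39 (adjusted p = 0.0368).

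Matn4, a matrilin of the extracellular matrix, read 7.73, 7.35 and 7.59 against 6.22, 6.86 and 6.77, a difference of 0.94 (adjusted p = 0.228) with an interaction of 1.28 (adjusted p = 0.0155). Its double knockout arrays again matched WT, at 7.46 to 7.79. Clec3b, Matn4 and Xist were the 3 genes (0.0242%) called higher in the interaction. With 1 array left out that count ran from 0, without double knockout replicate 1, to 4, without WT replicate 1. It was 0 with the Eif2s3y level as a covariate and 27 with the Xist level. Ocel1 read 6.61, 6.10 and 6.09 against 4.23, 5.12 and 4.83, for 1.54 (adjusted p = 0.304), and Fam32a read 10.07, 9.53 and 9.68 against 8.63, 8.61 and 8.53, for 1.17 (adjusted p = 0.337). In both genes the groups lay apart, and WT replicate 2, at 5.39 and 8.85, was the array of the other genotypes nearest to IFNARko. The second probe set of Fam32a gave 0.17, so its own probe sets disagree in size. Src, a tyrosine kinase, read 8.14, 7.92 and 8.16 against 7.22, 7.34 and 7.75, for 0.64, and its second probe set gave 1.18.

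Plvap, a protein of fenestrated endothelium, read 8.90, 8.59 and 8.57 against 8.0, 7.93 and 7.97, for 0.72 (adjusted p = 0.566). The enzyme gene Dera read 8.12, 7.71 and 8.05 against 7.32, 7.04 and 7.02, for 0.83. Ntng2, an adhesion molecule of axons, read 6.04, 5.50 and 5.61 against 4.12, 4.40 and 4.62, for 1.33. In these 3 the groups did not overlap, with and without IFNARko replicate 1, where the differences were 0.74, 0.93 and 1.20. The X-linked ubiquitin ligase gene Mid1 read 5.42, 4.69 and 5.56 against 4.32, 4.20 and 4.30, for 0.95, lowest in double knockout replicate 2, and 5.04 in WT replicate 1, the WT array with high Xist.

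On the lower side, 4921524J17Rik led. It read 9.32, 9.47 and 9.39 in the double knockout and 10.41, 10.11 and 9.99 in IFNARko, for -0.78 (95% interval -1.05 to -0.50, adjusted p = 0.228), and -0.66 without IFNARko replicate 1. WT and USP18ko lay at 9.06 to 9.52, beside the double knockout. Cntn4, an adhesion molecule of neurons, read 5.63, 6.15 and 5.73 against 6.88, 6.49 and 6.54, for -0.80, and its second probe set gave 0.09, the opposite sign. Gpt2, a mitochondrial alanine aminotransferase, read 8.31, 8.43 and 8.02 against 9.38, 8.82 and 9.04, for -0.83, and its other probe sets gave -0.36 and -0.07. 4833420G17Rik read 7.36, 8.55 and 7.46 against 9.64, 9.48 and 9.38, for -1.71, and its other probe sets gave -1.71 and -1.56.

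The other 6 lower genes differed by -0.88 to -0.49. Krit1, a gene of cerebral cavernous malformation, differed by -0.61, Tgds by -0.88 and Taf4, a subunit of the general factor TFIID, by -0.58. Ccdc91 differed by -0.56, Phtf1 by -0.49 and Grip1, a scaffold of glutamate receptors, by -0.54. In each of the 6 the 3 double knockout arrays lay below the 3 IFNARko arrays, and each difference was smaller in size without IFNARko replicate 1. For 13 of the 20 genes the IFNARko arrays lay outside all 9 other arrays, which held for 342 of all genes (2.76%). The double knockout arrays did so for 1 of the 20, Xist, and for 110 of all genes (0.888%). Of the 20 genes 11 had a single probe set, and in 8 of the other 9 all probe sets had the same sign.

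**Figure D4:**
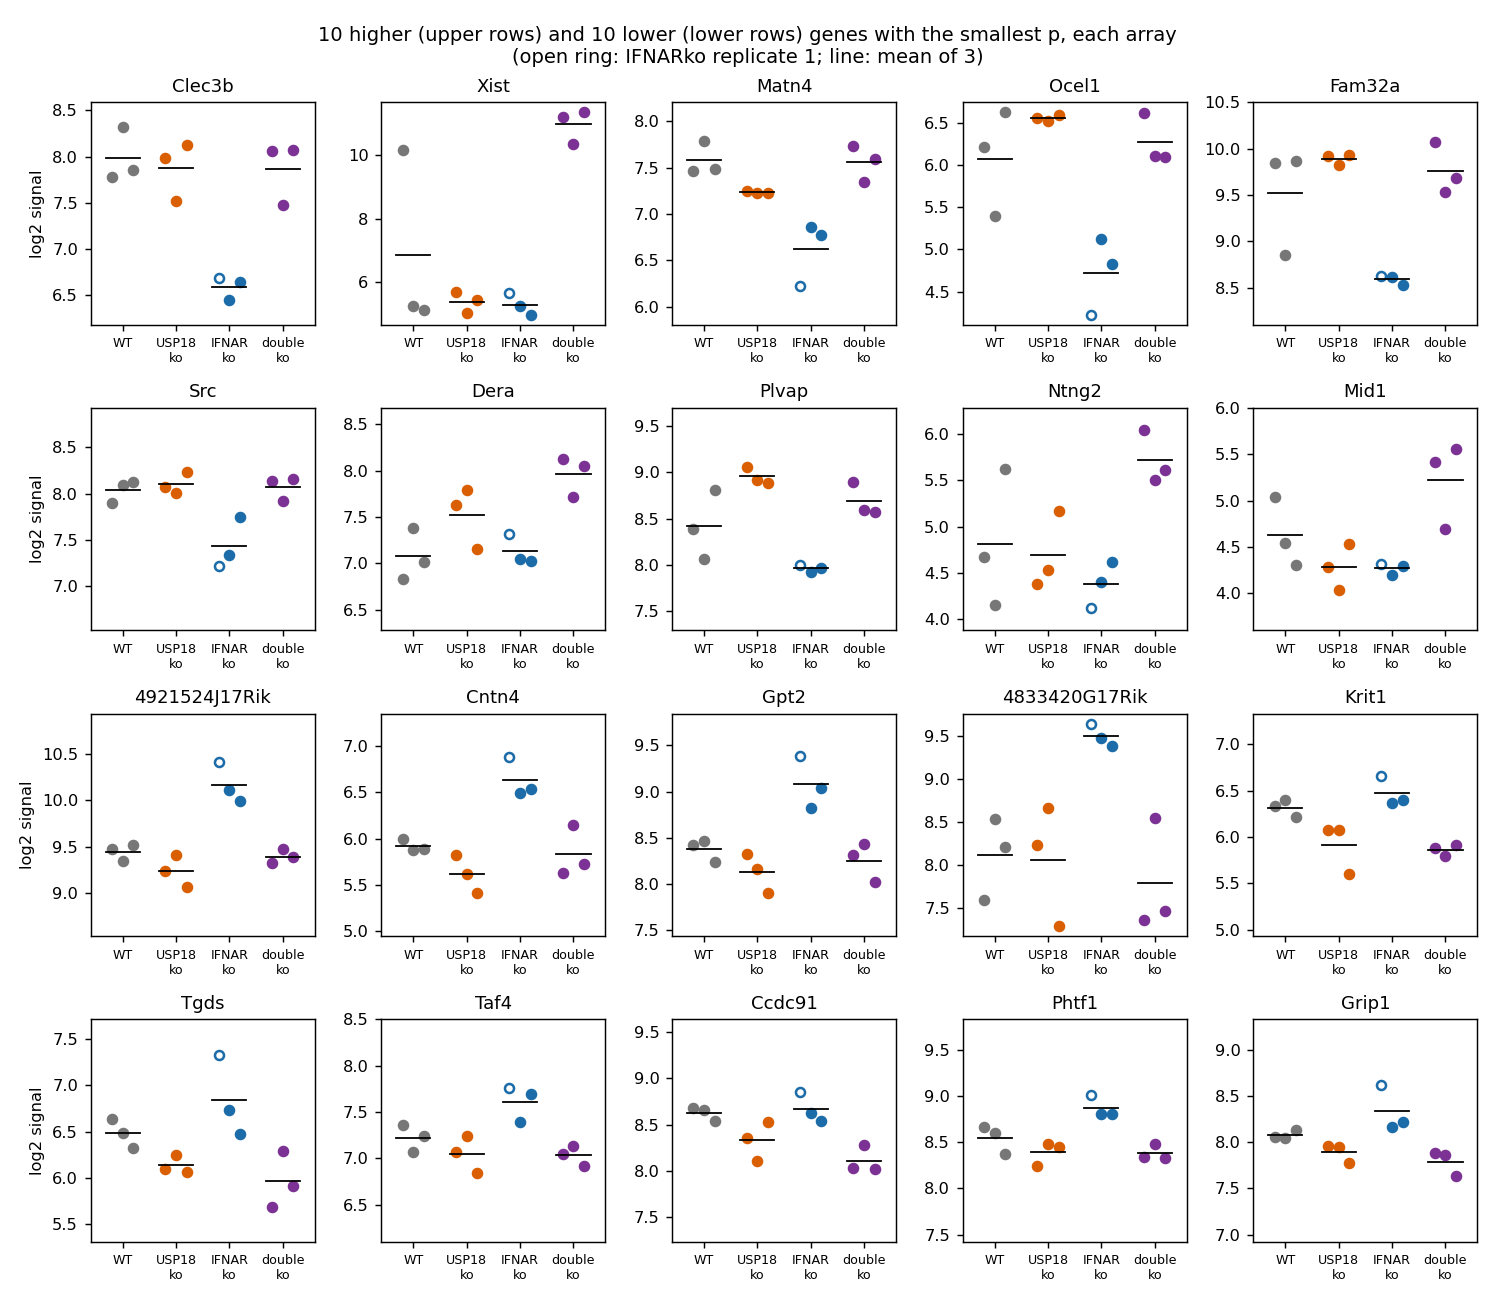
Log2 signals in each array of the 10 higher and 10 lower genes with the smallest p in the double knockout against IFNARko, by genotype, with the mean of 3 arrays as a line and IFNARko replicate 1 as an open ring. In 13 of the 20 panels the 3 IFNARko arrays lie outside the other 9, and only in that of Xist do the 3 double knockout arrays do so.

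Size alone gave a shorter list. A difference of at least 1 was seen for 30 genes, or 15 without IFNARko replicate 1, and 14 genes reached it in both fits with no overlap, 7 higher and 7 lower. They included Xist and the Y-linked Eif2s3y, Kdm5d and Uty, and 5 of the genes described above (Clec3b, Ocel1, Fam32a, Ntng2 and 4833420G17Rik). The other 5 were Sstr1, Nedd4, Tmem267, Malat1 and Sdc4, named after their values were seen. Sstr1, a somatostatin receptor, read 8.87, 7.94 and 8.86 in the double knockout and 4.92, 4.95 and 4.96 in IFNARko, but also 5.07 in USP18ko replicate 2 and 4.94 in WT replicate 2, with the other WT and USP18ko arrays at 8.24 to 8.57. Its level thus varied widely within genotypes. Nedd4, a ubiquitin ligase, read 11.99, 11.58 and 12.02 against 10.07, 10.75 and 10.39, for 1.46, while its other probe sets gave 0.15 and 0.55. Malat1, a nuclear long RNA, read 8.28, 9.22 and 7.92 against 9.37, 9.59 and 10.56, for -1.37. Sdc4, a syndecan, read 6.63, 7.97 and 6.69 against 8.61, 8.19 and 8.16, for -1.22, and double knockout replicate 2 was near the IFNARko arrays. The second probe set of Sdc4 gave 0.45, the opposite sign, and those of Malat1 gave -0.46 to -1.40.

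A fit of the 2 groups alone, with no WT or USP18ko array, called 2 genes (0.0161%), Xist and Sstr1. Without IFNARko replicate 1 it called 11 (0.0888%), which were Xist, Sstr1, Clec3b, Ocel1, Fam32a, Dera, Ntng2, Nedd4, Hebp1, 4921524J17Rik and Rsrp1. Hebp1 and Rsrp1 were named after their values were seen. Rsrp1 read 9.80, 9.82 and 9.69 in the double knockout and 9.93, 10.46 and 10.45 in IFNARko, while USP18ko and WT replicates ran from 9.48 to 10.81, wider than the gap. In the fit of all arrays its adjusted p was 0.583.

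The highest and the lowest difference of all genes belonged to Xist and Eif2s3y. Xist differed by 5.67 (95% interval 3.58 to 7.77, adjusted p = 0.228), a wide interval because WT replicate 1 also read 10.17. The Y-linked Eif2s3y, a translation initiation factor subunit, read 3.05, 7.16 and 3.22 against 8.94, 8.24 and 8.41, for -4.05 (95% interval -6.71 to -1.39, adjusted p = 0.566). Kdm5d, a histone demethylase, read 2.86, 5.73 and 2.79 against 7.40, 6.55 and 6.82, for -3.13, and Uty read 3.70, 4.81 and 3.81 against 4.92, 5.12 and 5.34, for -1.02. Double knockout replicate 2 lay between the other arrays of its group and the IFNARko arrays in these 3 genes. Sry and Usp9y differed by 0.18 and 0.04. Among X-linked genes Kdm6a, which escapes inactivation, read 7.58, 7.37 and 7.61 against 7.03, 7.17 and 7.22, for 0.38, and Eif2s3x differed by 0.38, while Ddx3x differed by -0.09. Of 5 measured Y-linked genes 3 were lower with no overlap, beside 11.2% of all genes. Of 9 measured X-linked genes of the list 4 were higher with no overlap, beside 9.28% of all genes.

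The genes beside Usp18 on chromosome 6 were read as a check on its surroundings. Among the 5 measured genes on each side, by gene order in GRCm38.p6, 0 were called, the median difference was -0.11 (-0.06 without IFNARko replicate 1) and the range was -0.27 to 0.12. Tuba8, a tubulin and the nearest measured gene on 1 side, read 5.61, 5.77 and 5.63 in the double knockout and 5.93, 5.76 and 5.78 in IFNARko, which overlap, for -0.15 (95% interval -0.41 to 0.10). Pex26, a peroxisome gene next to it, read 7.67, 7.62 and 7.66 against 7.80, 7.79 and 7.85, lower in all 3 arrays, at -0.16. A2m, a protease inhibitor, read 7.04, 7.28 and 7.14 against 7.52, 7.42 and 7.32, also lower without overlap (-0.27). Atp6v1e1, Bcl2l13, Bid and Klrg1 differed by -0.04, -0.07, -0.07 and 0.03, and Slc6a12 and Mug1 by 0.12 and -0.26. Slc6a13, a GABA transporter and the nearest measured gene on the other side, read 7.03, 7.35 and 7.03 against 6.94, 7.51 and 7.46. Its difference of -0.17 became -0.35 without IFNARko replicate 1 (95% interval -0.60 to -0.09, adjusted p = 0.975), where the groups no longer overlapped.

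Some differences lay side by side on other chromosomes. Of the 20 genes with the smallest p, 5 were on chromosome 8, which holds 5.22% of the tested genes, and 4 were on chromosome 2, which holds 7.80%. Another 3 (Dera, Cntn4 and Ccdc91) were on chromosome 6, which also carries Usp18 and holds 5.86%. Orc6, a subunit of the origin recognition complex, 4921524J17Rik and Gpt2 are consecutive measured genes on chromosome 8. This run, with Orc6, was picked after its values were seen, and 4921524J17Rik and Gpt2 are among the 20. All 3 genes were lower without overlap, with a median of -0.78 and -0.66 without IFNARko replicate 1. Orc6 read 8.44, 8.96 and 8.56 in the double knockout and 9.70, 9.22 and 9.24 in IFNARko, for -0.73. The 3 measured genes on each side of them had a median of -0.07, and 0 of these 6 lay apart. Ocel1, Plvap and Fam32a lie in a stretch of 25 measured genes on the same chromosome. Its ends, Ocel1 and Fam32a, were set after the values were seen. Of the 25, 11 were higher and 5 lower without overlap, and the 11 include these 3 genes, chosen for a small p. The shares were 9.28% and 11.2% of all genes, and 78 and 65 of the 646 measured genes of that chromosome. The median of the stretch, 0.20, became 0.07 without IFNARko replicate 1, whereas the 3 named genes kept differences of 1.29, 0.74 and 1.19.

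A further run was seen on chromosome 13, picked after its values were seen. Paip1, a translation regulator, 4833420G17Rik, 3110070M22Rik and Tmem267 are 4 consecutive measured genes, all lower without overlap, with a median of -1.22 and of -1.06 without IFNARko replicate 1. Tmem267 read 5.84, 8.49 and 6.23 in the double knockout and 10.42, 9.27 and 9.37 in IFNARko, for -2.83 (95% interval -4.74 to -0.92, adjusted p = 0.566). Its level also varied inside the other genotypes, at 6.18, 8.10 and 5.03 in USP18ko and 5.43, 8.55 and 7.29 in WT. Paip1 read 9.64, 10.11 and 9.89 against 11.12, 10.42 and 10.28, for -0.73. The 3 measured genes on each side had a median of -0.07, with 1 higher and 1 lower without overlap.

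**Figure D5:**
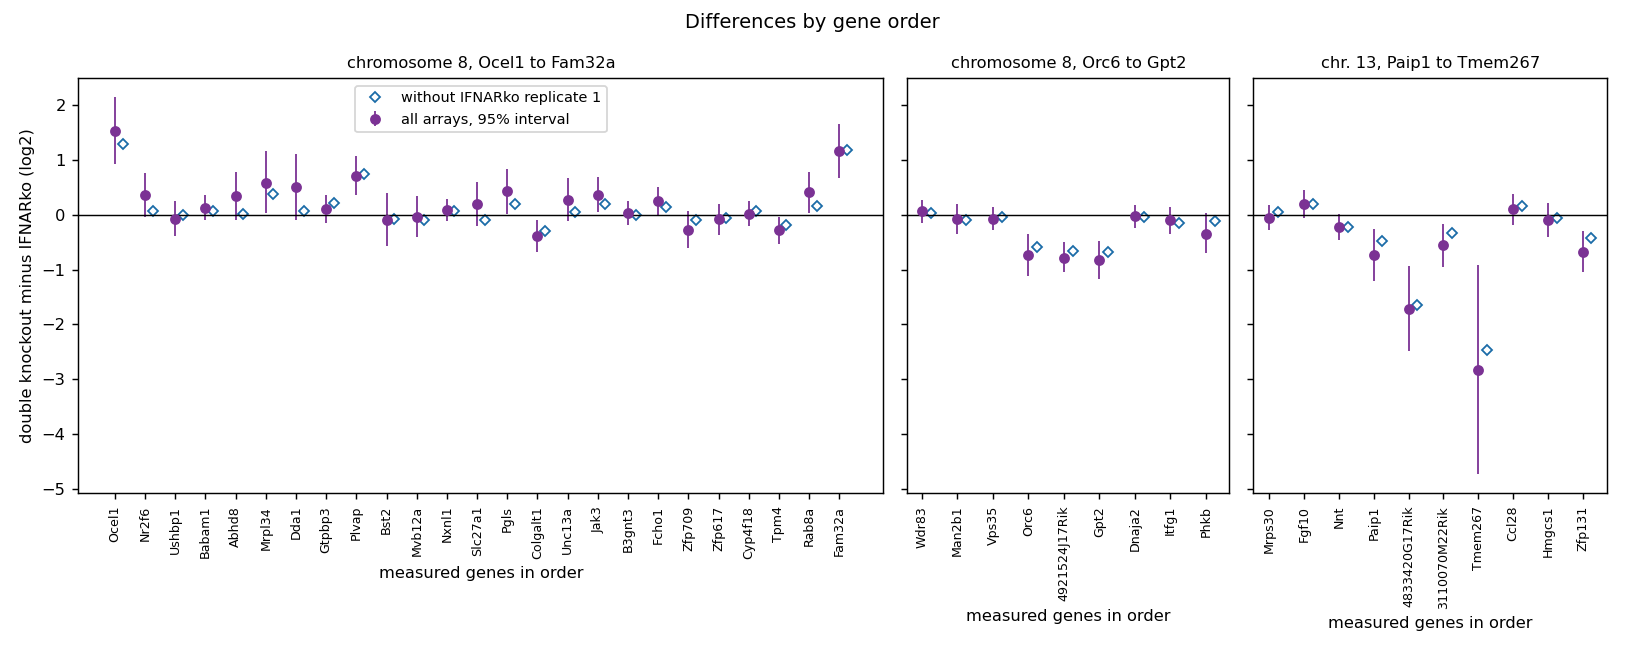
Differences between the double knockout and IFNARko in log2 units for measured genes in chromosomal order, with 95% intervals from all arrays (filled) and the difference without IFNARko replicate 1 (open diamonds), in 2 stretches of chromosome 8 and 1 of chromosome 13. Orc6, 4921524J17Rik and Gpt2 lie together at -0.73 to -0.83 between flanking genes near 0, and Paip1 to Tmem267 lie at -0.55 to -2.83.

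Lists of other pathways and of brain cell types were described in the same way. In all, 43 lists with 606 measured members were read, and 0 members were called. In bulk RNA fewer cells of a type and less RNA per cell cannot be told apart. Markers of perivascular macrophages had the lowest median after the Y-linked genes, at -0.35, and -0.22 without IFNARko replicate 1. Mrc1, the mannose receptor, read 6.02, 6.38 and 6.09 in the double knockout and 7.27, 6.75 and 6.71 in IFNARko, a difference of -0.75 (95% interval -1.23 to -0.27, adjusted p = 0.566), and -0.57 without that array. Lyve1, a hyaluronan receptor, read 4.77, 5.47 and 5.03 against 6.29, 5.68 and 6.02, for -0.91, while its second probe set gave only -0.20. Cbr2 read 5.17, 5.44 and 5.31 against 5.92, 5.72 and 5.54, for -0.42. All 3 lay apart, and 5 of the 9 markers were lower without overlap, beside 11.2% of all genes. Stab1 differed by 0.07, and Cd209f, named after its values were seen, went the other way. Cd209f read 6.05, 5.69 and 6.09 against 6.06, 5.66 and 5.36, for 0.25 (95% interval -0.12 to 0.62), and 0.44 without IFNARko replicate 1 (adjusted p = 0.975). The mean level of the 9 was 5.75 to 5.95 in the double knockout, 6.06 to 6.48 in IFNARko, 5.67 to 6.07 in WT and 6.23 to 6.52 in USP18ko. WT arrays thus overlapped the double knockout and reached the lowest IFNARko array, and IFNARko replicate 1 was the highest of its group. The part of RNA quality or of sex in this was not tested.

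Microglia differed little in their mean levels. The 12 measured of 15 microglia markers had a median of -0.04 and mean levels of 6.56 to 6.61 in the double knockout and 6.57 to 6.77 in IFNARko. Olfml3 alone among them was lower at an unadjusted p under 0.05, reading 6.70, 7.16 and 6.97 against 7.49, 7.49 and 7.69, for -0.61 (adjusted p = 0.566). The 23 measured microglia activation genes had a median of 0.06 here and of 0.76 in USP18ko against WT, where 6 were called higher. Reactive astrocyte genes had a median of 0.00, complement genes -0.05 and class I and antigen processing genes 0.17, with 0 called in each, where 5, 8 and 9 members were called higher in USP18ko. Markers of monocytes and neutrophils had mean levels of 4.26 to 4.90 and 4.23 to 4.79, and those of lymphocytes 4.72 to 4.80 and 4.66 to 5.08, with the top of the IFNARko range in replicate 1 for both.

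Among other brain cell types, neuron markers were lowest in IFNARko replicate 1. The mean level of neuron and synapse markers was 9.78 to 9.92 in the double knockout and 9.17 in IFNARko replicate 1, with the other IFNARko arrays up to 9.91, and the list median was 0.05. Syt1, the calcium sensor of synaptic vesicles, read 9.35, 9.19 and 8.88 against 6.49, 9.31 and 8.90, so its difference of 0.91 became 0.04 without that array. Markers of myelin, astrocytes and endothelium had medians of 0.15, 0.02 and 0.07. Gjb6, a gap junction gene of astrocytes, read 7.30, 7.50 and 7.39 against 8.24, 7.83 and 7.88, lower in all 3 arrays, for -0.59 and -0.46 without IFNARko replicate 1 (adjusted p = 0.566 in the fit of all arrays). Hypothalamic genes had a median of 0.21, led by Avp and by Sst, a neuropeptide gene that read 11.30, 11.11 and 11.32 against 10.48, 10.81 and 10.92, for 0.51.

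Among the remaining pathway lists, clock genes had a median of -0.21, and -0.07 without IFNARko replicate 1. At an unadjusted p under 0.05, 6 of the 17 measured were lower, beside 5.62% of all genes, and 0 without that array. Cry1, a repressor of the clock, read 8.16, 8.22 and 8.09 against 8.83, 8.41 and 8.48, for -0.42, and Clock read 7.39, 7.49 and 7.56 against 8.19, 7.59 and 7.78, for -0.37. In both, IFNARko replicate 1 was the highest array, though the other IFNARko arrays also lay above the double knockout. Genes of oxidative phosphorylation had a median of 0.17 and those of cytosolic ribosomal proteins 0.11, with 14 of 32 and 13 of 26 members higher without overlap, beside 9.28% of all genes. At an unadjusted p under 0.05, 1 of the 32 and 0 of the 26 were higher, and 0 of each without IFNARko replicate 1. The mean levels of the lists in WT arrays, 11.10 to 11.77 and 11.25 to 11.89, enclosed those of both groups compared here. Immediate early genes, heat shock genes and glucocorticoid-responsive genes had medians of -0.02, -0.03 and -0.05. Klf4, an immediate early transcription factor, read 6.16, 6.64 and 6.04 against 7.25, 6.83 and 6.87, for -0.71, and -0.57 without that array (adjusted p = 0.566 in the fit of all arrays).

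Of the class I genes, Tap2, which carries peptides to class I molecules, read 5.64, 5.52 and 5.69 in the double knockout and 5.29, 5.46 and 5.44 in IFNARko, higher without overlap, for 0.22 (95% interval -0.02 to 0.47), beside 1.08 in USP18ko against WT. H2-D1, a class I heavy chain, read 9.99, 9.90 and 10.08 against 9.12, 9.96 and 9.94, so its difference of 0.32 became 0.04 without IFNARko replicate 1. The microglial receptor gene Fcgr1 read 4.76, 4.78 and 4.89 against 5.11, 5.14 and 5.06, lower without overlap in a gene that was 2.72 higher in USP18ko than in WT. Its difference was -0.29 (95% interval -0.73 to 0.15) and -0.28 without that array. Serpina3n, an astrocyte reactivity gene, read 6.53, 6.43 and 6.87 against 6.42, 6.30 and 6.23, higher without overlap, for 0.30, and 0.35 without that array.

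The chemokine gene Cxcl12 read 9.51, 9.70 and 9.36 against 10.32, 9.72 and 9.62, and its difference of -0.36 became -0.15 without IFNARko replicate 1. The complement regulator Cd55 read 5.59, 5.79 and 5.45 against 6.90, 5.80 and 5.85, and its -0.57 became -0.21. In both the array apart was the highest of the 6. Car8, a gene of cerebellar Purkinje cells, read 9.36, 9.38 and 9.16 against 9.60, 9.56 and 9.75, lower without overlap, for -0.34 and for -0.36 without that array. Neurod6, of excitatory forebrain neurons, read 9.88, 9.97 and 9.85 against 10.51, 10.21 and 10.24, for -0.42, and -0.33 without it. The last pair of genes kept their separation in both fits, with adjusted p = 0.566 for each in the limma fit of all arrays. Among cholesterol synthesis genes Tm7sf2, a sterol reductase, read 9.58, 9.61 and 9.81 against 9.35, 9.34 and 9.36, higher without overlap, at 0.31 with and without that array. Its regulator Srebf2 read 9.26, 9.13 and 9.31 against 7.64, 8.98 and 9.02, and went from 0.69 to 0.23.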

How the data were processed

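RNA of 12 total brain lysates was measured on 1-colour Affymetrix 3' arrays, 3 for each of 4 genotypes. The authors deposited 1 log2 value for each probe set and array, and the submitters' processing notes name the R package affy. The sources used here state neither its version nor the background correction and normalization. The base of the logarithm was inferred from the range of values, and no detection calls or scanner files were used.

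Of 22690 probe sets, 64 were controls and 20380 had 1 gene in GEO's platform annotation, an old one in part. For a gene with several probe sets the one with the highest 12-array mean was taken, leaving 12393 genes. The remaining 2246 probe sets, with several genes or none, were tested apart, with 0 called and 156 at an unadjusted p under 0.05.

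Genes were tested with limma 3.58.1 in R 4.3.3 (lmFit, contrasts.fit, eBayes) fitted once to the 12 arrays by genotype, with no other term, two-sided, with Benjamini-Hochberg adjustment over all genes and calls at an adjusted p under 0.05. The intervals are 95% intervals of that fit. A fit without IFNARko replicate 1 stands beside it. Exact tests of 3 against 3 arrays cannot go below p = 0.1. The number of arrays limits the precision. The fit was tested on simulated data. All sample columns belonged to this series.

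The comparison, members and gene lists were chosen with earlier results of these data known, and lists are described by counts and medians without a test. Named are Usp18 and Ifnar1, the sex-linked genes of the lists, genes called in the main comparison or without IFNARko replicate 1 (none), the 10 higher and 10 lower genes with the smallest p, all measured genes of interferon signalling and the ISG15 pathway, up to 4 genes of every other list, the 5 measured neighbours on each side of Usp18, the 10 genes with the largest difference in USP18ko against WT and the 8 with the smallest p in the interaction. The text says which genes were chosen otherwise, except for those printed as members of a count of genes passing a threshold. Such genes, where no rule above names them, were also named after their values were seen. Alternatives were other probe set rules, a filter on the 40th percentile, quantile normalization, median centring, array weights, a trended variance, a fold threshold, the replicate block, Xist or Eif2s3y as a covariate, the 2 groups alone, and arrays left out. Gene-by-gene array weights, Xist without WT replicate 1 and Eif2s3y without IFNARko replicate 1 were added after seeing the data. Promoters are RefSeq's, of GRCm38.p6.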

Additional observations from a re-analysis of the deposited data

Results flagged for a closer look

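In 8 genes the difference on loss of Usp18 was not the same with and without the receptor gene, by the interaction term of the limma fit. The interaction (double knockout minus IFNARko, less USP18ko minus WT) was -4.06 for Ifit3, -3.26 for Irf7, -5.12 for Cxcl10, -4.87 for Ifit1, -3.64 for Gbp6, -3.38 for Lgals3bp, -4.18 for Ccl12 and -3.68 for Oasl2. Their adjusted p ran from 1.82e-07 for Ifit3 to 1.42e-05 for Ccl12 and Oasl2. In each of the 8 the USP18ko arrays lay above the other 9 arrays. These genes were named for the smallest p in the interaction, so their sizes are a description.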

How the results depend on the processing

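Of 32 alternatives, 21 left 0 genes called in the double knockout against IFNARko. Array weights called 814 (389 higher, 425 lower), although their estimate stopped before convergence, and gave 171 without IFNARko replicate 1. Those weights ran from 0.11 for IFNARko replicate 1 to 4.98 for IFNARko replicate 3. Gene-by-gene weights called 112, the 2 groups alone 2, and 11 without IFNARko replicate 1. With Xist as a covariate 363 were called, and 810 without IFNARko replicate 1. Within the other genotypes WT replicate 1 alone has high Xist, and without it that covariate called 0. Leaving out 1 array gave 0 to 3 calls: Xist without WT replicate 1, Fam32a without WT replicate 2, and Rec8, Clec3b and Sdc4 without double knockout replicate 2. Without both that array and IFNARko replicate 1 the count was 1. Of the 142 genes higher in USP18ko, array weights called 9, beside 814 of all 12393 genes. Of the 9, 8 were higher (Ifi202b 0.71, Cd5l 0.45, Rsad2 0.44, Oasl1 0.33, C1ra 0.31, Zbp1 0.31, Oas2 0.29, Xdh 0.24) and 1 was lower (Parp12 -0.30). Without IFNARko replicate 1 array weights called 0 of the 142, beside 171 of all genes. The Xist covariate called 2 of the 142, both higher, and 6 without IFNARko replicate 1, beside 363 and 810 of all genes. Of the 20 genes with the smallest p, array weights called 20 and the Xist covariate 0, and 626 of 631 values kept their sign. Of the 606 measured list members array weights called 52, and 12 without IFNARko replicate 1, beside 814 and 171 of all 12393 genes. Gene-by-gene weights called 8, beside 112 of all genes. The Xist covariate called 39, and 66 without IFNARko replicate 1, beside 363 and 810 of all genes. The 2 groups alone called 1 (with or without that array), and fits with an array left out called 0 to 1. Of the neighbours of Usp18, 1 was called with array weights, with or without that array. The 143 genes called in USP18ko against WT became 28 with low genes left out and 345 with gene-by-gene weights. The 105 of the interaction became 20 with low genes left out, 59 with the Xist covariate (583 without IFNARko replicate 1, 0 without WT replicate 1), 51 with the Eif2s3y covariate (68 without IFNARko replicate 1) and 220 with gene-by-gene weights. Signs turned and passed the threshold for Uty with the Xist covariate (1.55, or 1.53 without IFNARko replicate 1) and, in the latter fit, for Cspg4 (-0.64), Eif2s3x (-0.65) and Gpr34 (1.50). The cause was not tested. Same-numbered double knockout and IFNARko arrays had deviations that correlated at -0.15, -0.14 and -0.05. Deviations within groups of 3 arrays are tied to each other, so these values cannot show whether numbers pair samples. The replicate block left 0 genes called (1057 at an unadjusted p under 0.05), with 142 in USP18ko against WT and 102 in the interaction. With 3 arrays a group and no detection calls, small differences and low signals are beyond what these data resolve.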

Other observations

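The hindbrain Hox genes Hoxa5 and Hoxb5, which pattern the posterior nervous system, varied between arrays of 1 genotype. Hoxa5 read 7.96, 7.82 and 7.94 in the double knockout, 3.25, 7.36 and 7.0 in IFNARko, 7.94, 6.81 and 7.10 in USP18ko and 3.32, 8.43 and 3.55 in WT. Hoxb5 read 4.27 in IFNARko replicate 1 and 3.94 and 3.47 in WT replicates 1 and 3, against 6.39 to 7.71 elsewhere. Their differences between the double knockout and IFNARko, 2.04 and 1.23, became 0.73 and 0.40 without IFNARko replicate 1.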
